A study of Mus musculus with 22 samples.

Results

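Enteroendocrine cells are the hormone-secreting cells of the gut epithelium, and 10 genes that mark them were followed here in mouse distal colon, out of 46078 genes in the count table. The genes were picked by symbol as hormones, granule proteins and fate factors of these cells. They were Chga and Chgb, which encode chromogranin A and B, the hormone genes Gcg, Pyy, Insl5, Sst, Cck and Nts, and the transcription factor genes Neurod1 and Neurog3. All 10 were found, each once.

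RNA-Seq libraries were made from distal colon of 22 mice. Of these, 8 were C57BL/6 mice aged 14 weeks (4 males, 4 females), 7 were Winnie mice aged 14 weeks (3 males, 4 females) and 7 were Winnie-Prolapse mice aged 18 weeks (4 males, 3 females). Winnie mice carry a missense mutation in Muc2, the main secreted mucin of goblet cells, and develop colitis without any added agent. Winnie-Prolapse is the group that the labels call severely inflamed. The labels name no treatment, and the C57BL/6 and Winnie mice shared a breeding colony. Prolapse and age go together in this design and cannot be told apart.

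Enteroendocrine cells are scattered singly among absorptive and goblet cells, store peptides or serotonin in dense granules and release them when nutrients, microbial products or stretch reach the epithelium. They arise in the crypt from secretory progenitors that briefly express Neurog3, and then Neurod1 and other factors set the hormone they make. In the distal colon the common kinds are L cells, which make glucagon-like peptides from Gcg together with peptide YY and Insl5, enterochromaffin cells, which make serotonin, and D cells, which make somatostatin. Cck and Nts are mainly hormones of the small intestine. In bulk tissue, fewer cells of a kind and less RNA per cell cannot be told apart, and enteric neurons use several of the same peptides and granule proteins.

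Before the group results, some libraries need to be set apart. Levels are given as CPM, a gene's counts per 1 M counts of its library, and libraries held 24.8 to 36.3 M counts. C57BL/6 replicate 7 lay outside the range of the other 7 C57BL/6 libraries in several gene lists. Genes that mark position along the colon summed to 361.2 CPM there and to 932.4 to 1275 CPM in the others. Its enteric neuron list stood at 354.4 CPM against 156.8 to 266.3 CPM, and its smooth muscle list at 12390 CPM against 6845 to 9032 CPM. Its granule and prohormone processing list was also higher, at 734.7 CPM against 404.6 to 576.5 CPM, as was its epithelium list, at 15270 CPM against 11510 to 13600 CPM. Its leukocyte list was lower, at 173.6 CPM against 192.2 to 489 CPM, and so was its hormone receptor list, at 532.2 CPM against 547.4 to 683.9 CPM. Its squamous epithelium list stood at 47.4 CPM against 3.58 to 14.3 CPM, of which Sprr1a alone gave 44.6 CPM, while Krt6a, Krtdap and Ivl were at 0 counts. Results that rest on this library are given with and without it, except in fits of 1 sex and of the sex by group interaction. The position genes summed to 817.5 to 1174 CPM in Winnie and to 498.2 to 820.9 CPM in Winnie-Prolapse. Every Winnie-Prolapse sum was thus below every C57BL/6 sum but that of replicate 7. The part of position in the group differences was not tested. The squamous epithelium list summed to 105 to 2694 CPM in Winnie-Prolapse and to 5.64 to 101 CPM in Winnie. Sprr1a was at 102 to 289 CPM in Winnie-Prolapse, whereas Krt5 ran from 0.0592 to 647 CPM and Krt14 from 0.847 to 1107 CPM, so the lowest sum was almost only Sprr1a. Winnie-Prolapse replicate 6 had 189800 CPM in milk protein genes, which lowers the CPM of its other genes because CPM uses library totals. This library held the lowest Chga (16.3 CPM), Pyy (87.0 CPM) and epithelium sum (9825 CPM) of its group. Epithelial genes, the tissue the hormone cells belong to, summed to a mean of 12910 CPM in C57BL/6 (SD 1177, n = 8), of 15400 CPM in Winnie (SD 1796, n = 7) and of 13840 CPM in Winnie-Prolapse (SD 2278, n = 7). The insulin genes Ins1 and Ins2 had 0 counts in every library, and the pancreas list, at 3.55 to 20.3 CPM, consisted mainly of Ppy, which is also a gut hormone gene. At these depths 0 counts allow up to 0.0825 to 0.121 CPM.

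The 300 bases around the start of 3 of the genes are shown because Chga was the only gene of the 10 called with edgeR on all libraries, Sst was lower in both Winnie groups at the wider limit, and Chgb shares an 8-base motif with Sst. They run from 250 bases before to 50 after the RefSeq start on GRCm38.p6. Capitals mark TGACGTCA, the full cyclic AMP response element, in Chgb and Sst, and TATAAA, the core of the promoter box named for it, in Chga.
Chga, chr12:102554691-102554990, plus strand: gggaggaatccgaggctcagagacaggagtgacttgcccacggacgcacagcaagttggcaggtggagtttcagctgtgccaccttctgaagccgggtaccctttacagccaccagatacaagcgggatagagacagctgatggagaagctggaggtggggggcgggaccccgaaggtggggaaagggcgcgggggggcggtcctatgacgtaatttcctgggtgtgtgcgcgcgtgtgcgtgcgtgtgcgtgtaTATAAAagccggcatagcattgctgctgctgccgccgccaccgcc
Chgb, chr2:132781392-132781691, plus strand: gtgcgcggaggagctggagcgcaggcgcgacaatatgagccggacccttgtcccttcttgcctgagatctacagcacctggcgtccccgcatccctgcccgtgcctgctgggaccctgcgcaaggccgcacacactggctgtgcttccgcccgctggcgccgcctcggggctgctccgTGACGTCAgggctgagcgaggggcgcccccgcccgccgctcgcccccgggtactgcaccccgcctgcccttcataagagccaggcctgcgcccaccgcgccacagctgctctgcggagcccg
Sst, chr16:23890795-23891094, minus strand: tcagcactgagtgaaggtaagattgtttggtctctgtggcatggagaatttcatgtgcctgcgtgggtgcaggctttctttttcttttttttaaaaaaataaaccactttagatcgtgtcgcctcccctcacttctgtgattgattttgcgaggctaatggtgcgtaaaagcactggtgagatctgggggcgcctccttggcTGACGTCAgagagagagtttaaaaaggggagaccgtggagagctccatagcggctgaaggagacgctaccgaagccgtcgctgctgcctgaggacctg
Searched on both strands, TGACGTCA was found in the windows of Chgb and Sst and in none of the other 8 genes, while 1.79% of 32851 such windows hold it. It begins at position -72 from the start in Chgb and at position -48 in Sst. TATAAA was found in Chga, Gcg and Insl5, against 13.6% of all windows. CAGCTG, a form of the E-box that factors such as Neurod1 and Neurog3 can bind, was in Chga, Chgb, Neurog3 and Nts, against 16.3% of all windows. The general E-box CANNTG, which includes CAGCTG, was in all 10 genes and in 72.3% of windows. These are matches of letters and do not show that a factor was bound.

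In C57BL/6 colon Pyy and Insl5, hormones of L cells, led the list. Compared per length, as CPM per kilobase of exon (RPKM), Pyy had the highest level at 167 ± 57.1 RPKM (SD, n = 8), followed by Insl5 at 69.6 ± 28.6 RPKM (SD, n = 8). Chgb at 27.6 ± 7.49 RPKM and Chga at 21.1 ± 4.52 RPKM (SD, n = 8 each) came next and lay within their spread of each other. Sst at 15.3 ± 11.3 RPKM and Gcg at 14.0 ± 6.76 RPKM (SD, n = 8 each) could not be ordered. Neurod1 at 1.02 ± 0.224 RPKM (SD, n = 8) stood well below these. Nts, Cck and Neurog3 were lowest, with means of 0.517, 0.508 and 0.463 RPKM, and the first 2 of these means came mainly from replicate 7. Pyy, Insl5 and Chgb kept the first 3 places in Winnie and in Winnie-Prolapse.

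**Figure D1:**
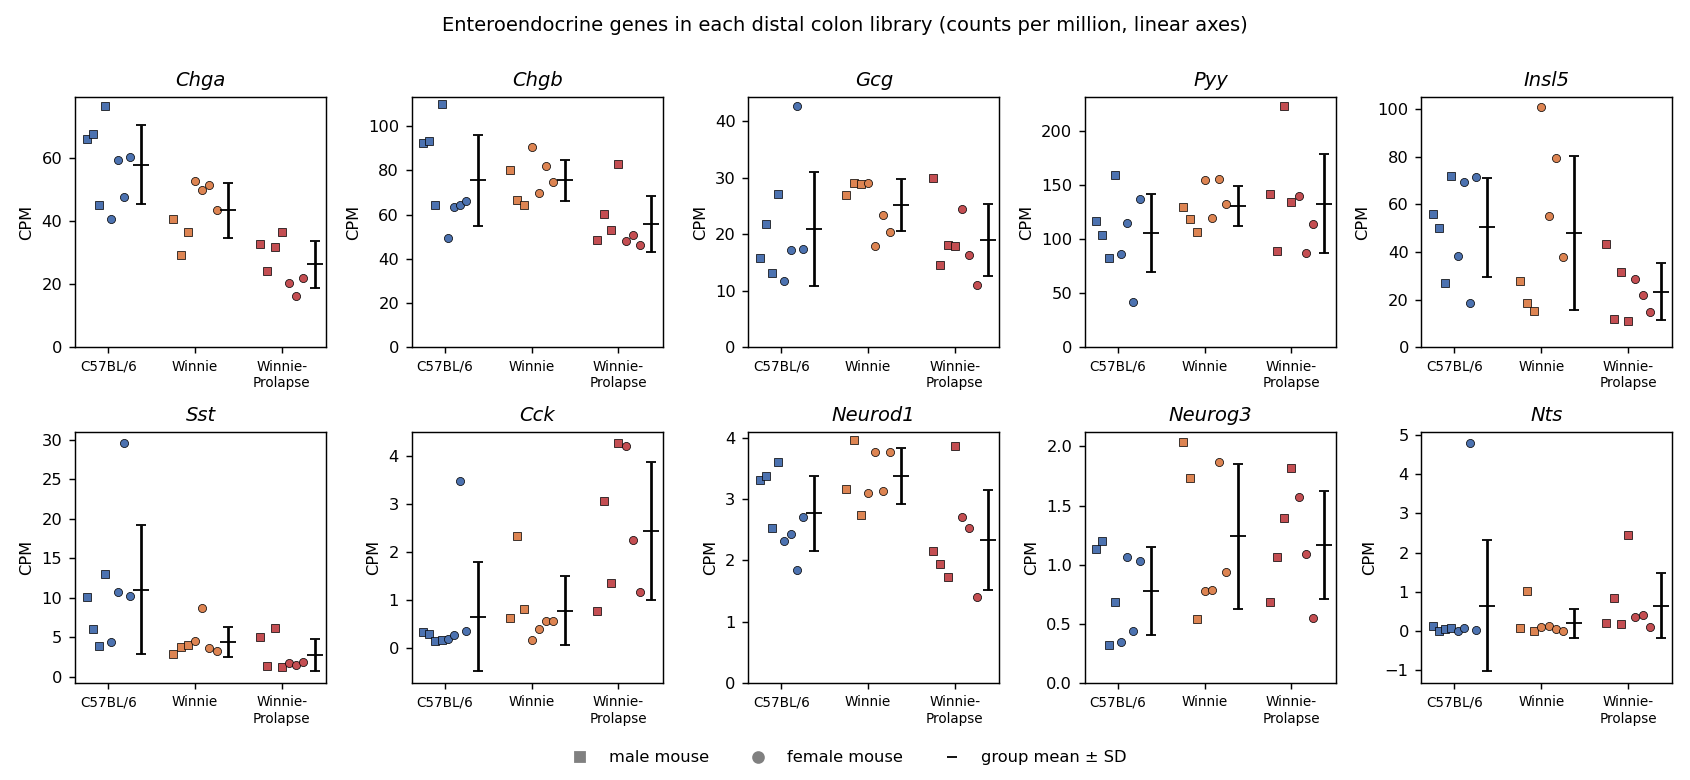
Level of each gene in CPM (vertical axis, linear, one scale per gene) in every library of C57BL/6, Winnie and Winnie-Prolapse mice. Squares are males, circles are females, and the bars to the right of each group show the mean ± SD. Chga stepped down over the 3 group means (58.0, 43.5 and 26.3 CPM), and 1 C57BL/6 library stood high for Gcg, Sst, Cck and Nts.

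Group differences were tested with edgeR's quasi-likelihood F test on the counts, with Benjamini-Hochberg adjustment over all genes tested. A gene was called at an adjusted p under 0.001 and a change of at least 1.5-fold, and a wider limit of adjusted p under 0.05 and 1.5-fold was read beside it. Of the 10 genes, 9 passed the low-count filter and Nts did not. Cck passed on few counts, 5 to 11 in 7 of the C57BL/6 libraries, so its entry into the test owed much to the Winnie and Winnie-Prolapse libraries. In Winnie vs. C57BL/6, 0 of 9 were called, where 0.0925% of 17289 genes were called. DESeq2, which called 5.44% of genes there, and limma-voom, which called 0%, also called 0 of them, and 2 of 9 (Sst and Neurod1) had an unadjusted p under 0.05, as did 39.9% of all genes tested. At the wider limit 1 of 9 passed (Sst, lower), against 15.9% of all genes in either direction and 8.53% lower. In Winnie-Prolapse vs. C57BL/6, 1 of 9 was called (Chga, lower), against 18.3% of 17397 genes in either direction and 8.47% lower. At the wider limit 3 were lower (Chga, Insl5 and Sst), against 17.7% of all genes, and 1 was higher (Cck), so that 4 of 9 passed against 34.4%. In Winnie-Prolapse vs. Winnie, 0 of 9 were called and 0% of 17041 genes were called. Over all genes in that comparison 4743 (27.8%) had an unadjusted p under 0.05, DESeq2 called 644 and limma-voom 0. Of the 9 genes, 5 had an unadjusted p under 0.05, and DESeq2 and limma-voom called 0. At the wider limit 2 of 9 passed (Chga lower, Cck higher), against 6.99% of all genes and 2.72% lower. The median log2 fold change of the 9 genes was 0.30, -0.17 and -0.45 in the 3 comparisons, beside -0.0068, -0.011 and 0.0075 over all genes tested. The comparisons share groups, so they are not independent of each other.

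**Figure D2:**
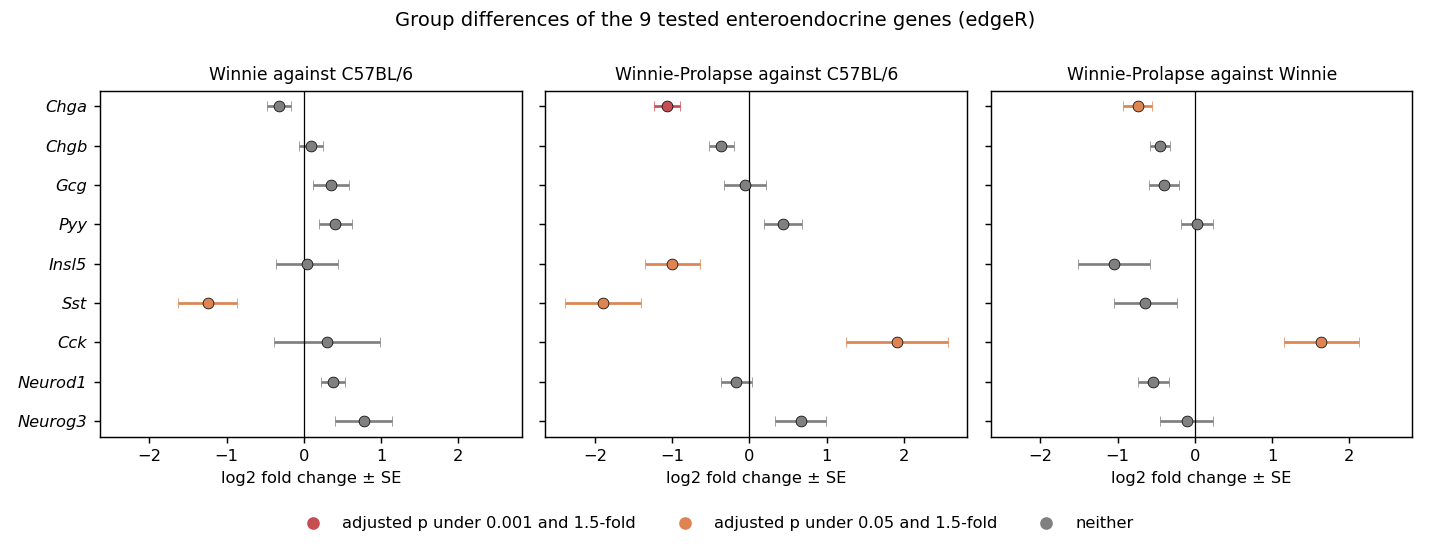
Log2 fold change (horizontal axis) with its standard error for the 9 tested genes (rows) in the 3 group comparisons, from edgeR. Red marks a call at adjusted p under 0.001 and 1.5-fold, orange the wider limit of 0.05, and grey neither. Chga in Winnie-Prolapse vs. C57BL/6 (-1.06) is the only red point.

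The granins are acidic proteins that condense hormone cargo in dense granules. Chga (ENSMUSG00000021194, GRCm38 chromosome 12, 102554969 to 102565028, plus strand, 8 exon blocks) ranged from 40.7 to 76.6 CPM in C57BL/6 with a median of 60.1 CPM. It ranged from 29.4 to 52.9 CPM in Winnie with a median of 43.5 CPM, and from 16.3 to 36.5 CPM in Winnie-Prolapse with a median of 24.2 CPM. Every Winnie-Prolapse library thus lay below every C57BL/6 library, which 16% of all tested genes did in one or the other direction, while Winnie overlapped both other groups (in Winnie-Prolapse vs. Winnie 0.962% of tested genes did not overlap, and in Winnie vs. C57BL/6 1.64%). The fall in Winnie-Prolapse vs. C57BL/6 was 2.09-fold (log2 fold change -1.06, SE 0.17, adjusted p = 0.000107). With any 1 library left out, Chga stayed called (15 of 15 fits), with log2 fold changes from -1.15 to -0.99. In fits of 1 sex, which hold fewer samples, it passed only the wider limit, at -0.98 in males (adjusted p = 0.00735) and -1.26 in females (adjusted p = 0.0028). In Winnie vs. C57BL/6 the change of Chga did not pass (log2 fold change -0.32, SE 0.16, adjusted p = 0.143), with 7 of 7 Winnie libraries below the C57BL/6 median. It passed the wider limit there when counts were scaled to epithelial genes (-0.66, adjusted p = 0.0132) and in males alone (-0.81, adjusted p = 0.0136), but not in females alone (0.035, adjusted p = 0.923). Against Winnie, the Winnie-Prolapse level passed the wider limit (log2 fold change -0.74, SE 0.19, adjusted p = 0.0294). That result was lost in 7 of 14 fits that dropped a library (Winnie replicates 4 to 7 and Winnie-Prolapse replicates 2, 5 and 6, adjusted p up to 0.0655). It was also lost when counts were scaled to epithelial genes (log2 fold change -0.49, adjusted p = 0.0633) and in males alone (-0.16, adjusted p = 0.895), and in females alone it was -1.32 (adjusted p = 0.00116). At the wider limit the enteric neuron list was lower in 12 of 12 genes in Winnie and in 11 of 12 in Winnie-Prolapse, both vs. C57BL/6. In Winnie-Prolapse vs. Winnie 0 of its 12 genes were lower and 1 was higher. In C57BL/6 replicate 7, where that list was highest, Chga stood at 47.9 CPM, below the group median. Leukocyte genes summed to means of 321.7, 898.6 and 1785 CPM in C57BL/6, Winnie and Winnie-Prolapse. The part of neurons or leukocytes in the level of Chga was not tested. The goblet cell list went both ways in Winnie-Prolapse vs. C57BL/6, with 3 of 7 genes lower and 2 higher at the wider limit. Clca1 was called lower (-3.00, adjusted p = 0.000806), and Agr2 (1.49, adjusted p = 4.56e-06) and Spink4 (1.17, adjusted p = 2.44e-05) were called higher. Of its most abundant genes Muc2 passed the wider limit (-0.84, adjusted p = 0.0155), and Fcgbp (-0.95, adjusted p = 0.0506) and Zg16 (-0.88, adjusted p = 0.256) did not.

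Chgb (ENSMUSG00000027350, chromosome 2, 132781278 to 132795079, plus strand) had a mean of 75.5 CPM in both C57BL/6 (SD 20.5, n = 8) and Winnie (SD 9.34, n = 7). Its mean was 55.7 CPM in Winnie-Prolapse (SD 12.8, n = 7), where libraries ran from 46.4 to 82.7 CPM around a median of 50.7 CPM. The groups overlapped in every comparison. The log2 fold change of Chgb was 0.09 (SE 0.16, adjusted p = 0.678) in Winnie vs. C57BL/6 and -0.36 (SE 0.16, adjusted p = 0.0657) in Winnie-Prolapse vs. C57BL/6. In Winnie-Prolapse vs. Winnie it was -0.45 (SE 0.13, adjusted p = 0.048), under the 1.5-fold limit.

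The ratio of Chga to Chgb counts needs no scaling between libraries and was looked at after the values had been seen, so it is given as a description. It lay between 0.696 and 0.937 in C57BL/6, between 0.440 and 0.713 in Winnie and between 0.321 and 0.676 in Winnie-Prolapse. All 7 Winnie-Prolapse libraries and 6 of the 7 Winnie libraries fell below the lowest C57BL/6 library.

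Of the L cell hormone genes, Insl5 passed the wider limit in 1 comparison, and Pyy and Gcg passed it in none with all libraries kept. Pyy (ENSMUSG00000017311, chromosome 11, 102106676 to 102107832, minus strand), whose peptide slows transit and reduces appetite, ranged from 42.0 to 159.9 CPM in C57BL/6 (median 109.7), from 106.7 to 155.6 CPM in Winnie (median 129.6) and from 87.0 to 223.1 CPM in Winnie-Prolapse (median 134.3). The groups overlapped widely, and the lowest library of all was C57BL/6 replicate 7. Pyy did not pass in Winnie (log2 fold change 0.41, SE 0.21, adjusted p = 0.154), in Winnie-Prolapse vs. C57BL/6 (0.43, SE 0.25, adjusted p = 0.154) or in Winnie-Prolapse vs. Winnie (0.02, SE 0.21, adjusted p = 0.955).

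Insl5 (ENSMUSG00000066090, chromosome 4, 103017872 to 103026842, minus strand) encodes a relaxin family peptide of colonic L cells. Its levels were 18.7 to 71.8 CPM in C57BL/6 (median 53.1), 15.1 to 100.7 CPM in Winnie (median 37.7) and 10.9 to 43.6 CPM in Winnie-Prolapse (median 21.8). All 7 Winnie-Prolapse libraries lay below the C57BL/6 median, though the ranges overlapped. Insl5 passed the wider limit in Winnie-Prolapse vs. C57BL/6 at 1.99-fold lower (log2 fold change -0.996, SE 0.35, adjusted p = 0.0259). Without C57BL/6 replicate 7 the log2 fold change was -1.11 (SE 0.33, adjusted p = 0.01). Dropping C57BL/6 replicate 4, 6 or 8 or Winnie-Prolapse replicate 2 or 4 took it past 0.05, to at most 0.053. In Winnie vs. C57BL/6 it was 0.04 (SE 0.41, adjusted p = 0.952), the Winnie libraries being spread over the widest range of any group. In males alone it was -1.27 (adjusted p = 0.02), and the levels by sex are given below. Comparing Winnie-Prolapse with Winnie gave -1.04 (SE 0.46, adjusted p = 0.16).

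Gcg (ENSMUSG00000000394, chromosome 2, 62474530 to 62483650, minus strand), the source of the glucagon-like peptides, had a mean of 20.9 CPM in C57BL/6 (SD 10.1, n = 8), 25.2 CPM in Winnie (SD 4.59, n = 7) and 18.96 CPM in Winnie-Prolapse (SD 6.35, n = 7). C57BL/6 replicate 7 held 42.8 CPM and the other 7 held 11.7 to 27.1 CPM. With all libraries the Winnie difference did not pass (log2 fold change 0.35, SE 0.23, adjusted p = 0.267). Without replicate 7 it passed the wider limit (0.59, SE 0.17, adjusted p = 0.0188), with 3 of 7 Winnie libraries above all 7 remaining C57BL/6 libraries. In Winnie-Prolapse vs. C57BL/6 the log2 fold change of Gcg was -0.06 (SE 0.27, adjusted p = 0.874), and 0.20 (SE 0.21, adjusted p = 0.458) without that library. Between the Winnie groups it was -0.40 (SE 0.19, adjusted p = 0.192).

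The ratio of Insl5 to Pyy counts was 0.328 to 0.603 in C57BL/6, 0.142 to 0.648 in Winnie and 0.0810 to 0.307 in Winnie-Prolapse, so that Winnie-Prolapse and C57BL/6 did not overlap. The ratio of Gcg to Pyy was 1.02 in C57BL/6 replicate 7 and 0.127 to 0.209 in the other 7 C57BL/6 libraries. It was 0.150 to 0.272 in Winnie and 0.0808 to 0.212 in Winnie-Prolapse, so the groups overlapped. The ratio of Sst to Chga overlapped as well, at 0.0878 to 0.618 in C57BL/6, 0.0715 to 0.174 in Winnie and 0.0344 to 0.195 in Winnie-Prolapse. These ratios were also chosen after the values had been seen. The share of all gene pairs whose ratios do not overlap was not computed for any of them.

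**Figure D3:**
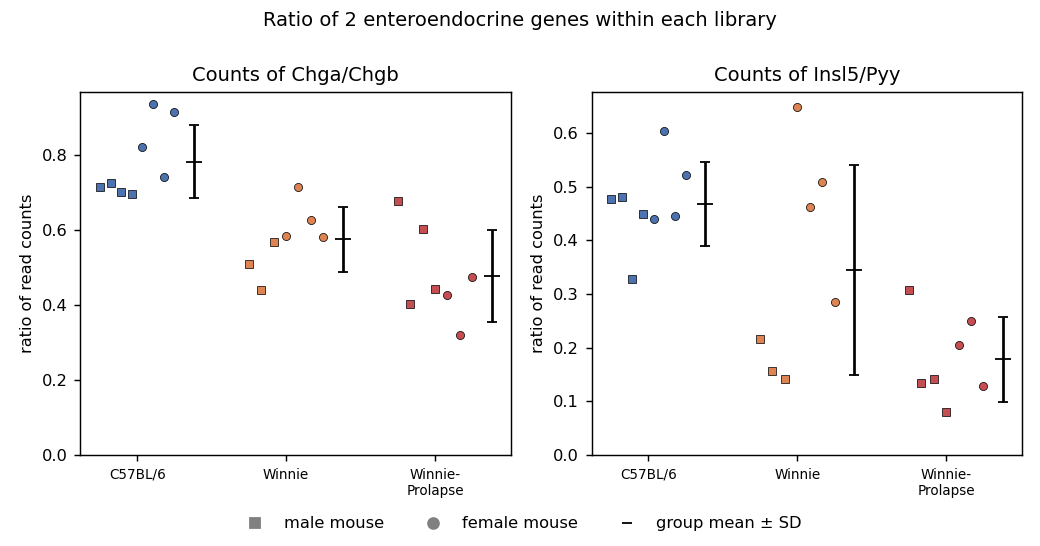
Ratio of read counts within each library (vertical axis, no unit) for Chga to Chgb and for Insl5 to Pyy, by group. Squares are males, circles are females, and bars show the mean ± SD. In both panels the Winnie-Prolapse libraries, at most 0.676 and 0.307, lie below every C57BL/6 library.

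Sst (ENSMUSG00000004366, chromosome 16, 23889573 to 23890958, minus strand) encodes somatostatin, which restrains the release of other gut hormones and is made by D cells and by some enteric neurons. It ranged from 3.97 to 29.6 CPM in C57BL/6 (median 10.2), from 2.92 to 8.70 CPM in Winnie (median 3.78) and from 1.26 to 6.23 CPM in Winnie-Prolapse (median 1.77). Every library of both Winnie groups lay below the C57BL/6 median, and in Winnie-Prolapse 5 of 7 lay below the lowest C57BL/6 library. Sst was 2.37-fold lower in Winnie vs. C57BL/6 (log2 fold change -1.24, SE 0.38, adjusted p = 0.027) and 3.72-fold lower in Winnie-Prolapse vs. C57BL/6 (-1.90, SE 0.50, adjusted p = 0.00475), past the wider limit only. Without C57BL/6 replicate 7, its highest library, the values were -0.85 (SE 0.29, adjusted p = 0.0402) and -1.48 (SE 0.43, adjusted p = 0.00872). With the low-count filter also removed the Winnie result missed 0.05 (-0.83, adjusted p = 0.0519), as it did in females alone (-1.35, adjusted p = 0.227). Dropping Winnie replicate 1, 2 or 7 took the Winnie result past 0.05, to at most 0.0608, and limma-voom gave -1.04 (adjusted p = 0.059). In Winnie-Prolapse vs. Winnie the log2 fold change was -0.64 (SE 0.41, adjusted p = 0.321). Enteric neuron genes moved with Sst: 12 of 12 were lower in Winnie and 11 of 12 in Winnie-Prolapse at the wider limit. Summed, they ran from 156.8 to 354.4 CPM in C57BL/6, from 48.9 to 175 CPM in Winnie and from 42.5 to 108 CPM in Winnie-Prolapse. Their part in the change of Sst was not tested.

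Cck and Nts were the rare hormones, and their values depended on 1 control library. Cck (ENSMUSG00000032532, chromosome 9, 121489824 to 121495694, minus strand) encodes cholecystokinin, known for gallbladder contraction and satiety. C57BL/6 replicate 7 held 3.48 CPM (96 counts), and the other 7 C57BL/6 libraries held 0.159 to 0.364 CPM. Winnie libraries held 0.169 to 2.34 CPM (median 0.575) and Winnie-Prolapse libraries 0.769 to 4.26 CPM (median 2.26). With every library kept, Cck passed the wider limit in Winnie-Prolapse vs. C57BL/6 at 3.76-fold higher (log2 fold change 1.91, SE 0.66, adjusted p = 0.0231). It also passed in Winnie-Prolapse vs. Winnie at 3.11-fold higher (1.64, SE 0.49, adjusted p = 0.0497) but 11 of 14 fits that dropped a library missed it, with adjusted p from 0.00731 to 0.103 over the 14. Those 11 left out any Winnie library but replicate 2, or any Winnie-Prolapse library but replicates 1 and 3. In Winnie vs. C57BL/6 the log2 fold change was 0.30 (SE 0.69, adjusted p = 0.767), with 2.34 in males alone (adjusted p = 0.0117) and -1.20 in females alone (adjusted p = 0.516). C57BL/6 replicate 7 is a female, and the fit of females was not repeated without it. The other C57BL/6 females held 0.193 to 0.364 CPM, and Winnie females 0.169 to 0.575 CPM. Without replicate 7 every one of the 7 Winnie-Prolapse libraries lay above all remaining C57BL/6 libraries, where 20.5% of all genes did not overlap in either direction. Those C57BL/6 libraries hold 5 to 11 counts, so Cck then entered the test through the Winnie groups. It was called in Winnie-Prolapse (log2 fold change 3.27, SE 0.38, adjusted p = 8.46e-06) and passed the wider limit in Winnie (1.63, SE 0.45, adjusted p = 0.0169). DESeq2, which by default replaces counts it marks as outlying, replaced that library's Cck count in the Winnie comparison and gave 1.56 there (SE 0.45, adjusted p = 0.00512).

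Nts (ENSMUSG00000019890, chromosome 10, 102481756 to 102490486, minus strand) encodes neurotensin. It had 132 counts (4.78 CPM) in C57BL/6 replicate 7 and 0 to 4 counts in the other 7 C57BL/6 libraries. Winnie libraries had 0 to 32 counts and Winnie-Prolapse libraries 3 to 74 counts. With no filter on low counts, the log2 fold change of Nts in Winnie-Prolapse vs. C57BL/6 was 0.03 (SE 1.07, adjusted p = 0.984). With no filter and without replicate 7 it was 3.46 (SE 0.74, adjusted p = 0.0017), with 6 of 7 Winnie-Prolapse libraries above all remaining C57BL/6 libraries. DESeq2 replaced the Nts count of replicate 7 and called the gene there (3.20, SE 0.75, adjusted p = 9.79e-05). In Winnie-Prolapse vs. Winnie DESeq2 gave 1.68 (SE 0.90, adjusted p = 0.21). Several of these counts are at or near the 3 counts that a count of 0 allows, so folds on Nts are uncertain. Cck and Nts were highest in the same library of each group: C57BL/6 replicate 7, Winnie replicate 2 (2.34 and 1.02 CPM) and Winnie-Prolapse replicate 4 (4.26 and 2.45 CPM). The squamous epithelium list was also highest of its group in the first 2 of these, at 47.4 CPM (mainly Sprr1a) and 101 CPM, and stood at 1245 CPM in the third. Winnie-Prolapse replicate 7 had the highest squamous sum, 2694 CPM, but the lowest Nts of its group (0.110 CPM) and Cck at 1.18 CPM. Winnie-Prolapse replicate 5, with a squamous sum of 352.2 CPM, had Cck at 4.22 CPM. The part of squamous epithelium in the levels of Cck and Nts was not tested.

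**Figure D4:**
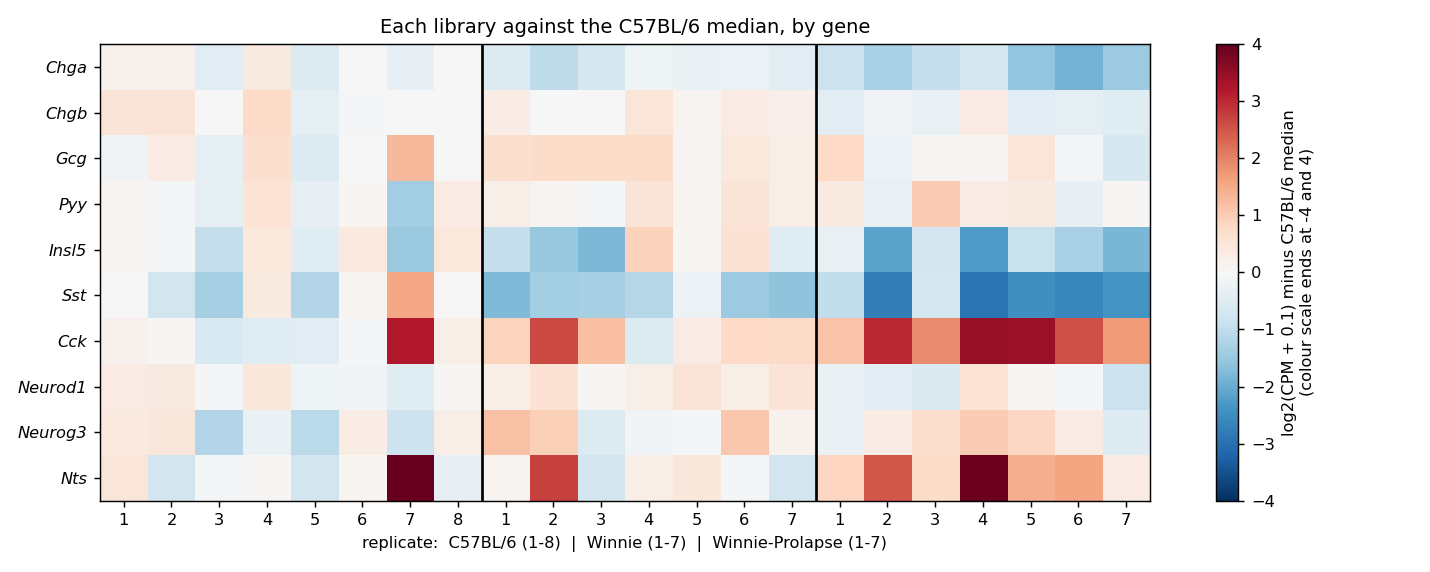
Heat map of log2(CPM + 0.1) minus the median of the C57BL/6 libraries, with genes in rows and the 22 libraries in columns by group and replicate. Red is above and blue below that median. C57BL/6 replicate 7 is red for Gcg, Sst, Cck and Nts and blue for Pyy and Insl5, and the Winnie-Prolapse columns are blue for Chga, Insl5 and Sst and red for Cck.

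The fate factors did not pass in any comparison. Neurog3 (ENSMUSG00000044312, chromosome 10, 62133090 to 62134763, plus strand), the factor that commits progenitors to the endocrine line, ran from 0.317 to 1.20 CPM in C57BL/6, from 0.540 to 2.04 CPM in Winnie and from 0.552 to 1.82 CPM in Winnie-Prolapse. Its log2 fold change was 0.78 (SE 0.37, adjusted p = 0.126) in Winnie and 0.66 (SE 0.33, adjusted p = 0.104) in Winnie-Prolapse, both vs. C57BL/6. Between the 2 Winnie groups it was -0.11 (SE 0.34, adjusted p = 0.873). Neurod1 (ENSMUSG00000034701, chromosome 2, 79452521 to 79456751, minus strand), which acts after Neurog3, gave 2.77 ± 0.611 CPM (SD, n = 8), 3.38 ± 0.459 CPM (SD, n = 7) and 2.34 ± 0.813 CPM (SD, n = 7) in C57BL/6, Winnie and Winnie-Prolapse. All 7 Winnie libraries lay above the C57BL/6 median (log2 fold change 0.37, SE 0.15, adjusted p = 0.0842). In Winnie-Prolapse the log2 fold change was -0.17 (SE 0.20, adjusted p = 0.504) vs. C57BL/6 and -0.54 (SE 0.20, adjusted p = 0.0953) vs. Winnie, with 6 of 7 libraries below the lowest Winnie library. Exons of Neurod1 overlap Cerkl on its own strand and Gm26755 on the other, and Neurog3 overlaps Fam241b on the other strand, so reads of these genes may be shared.

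Lists of related genes were read at the wider limit beside the 10 genes. They were chosen with earlier results of these data known, and each is described by counts, to be read against the 8.53% (Winnie) and 17.7% (Winnie-Prolapse) of all genes that were lower vs. C57BL/6. Among 18 other transcription factors of enteroendocrine cells, 2 were lower in Winnie vs. C57BL/6, and 11 were lower and 1 higher in Winnie-Prolapse vs. C57BL/6. The list medians were -0.10 and -0.76 (log2). In Winnie-Prolapse 3 were called, all lower, where 8.47% of all genes were called lower: Runx1t1 (-1.37, adjusted p = 3.87e-05), Myt1 (-1.25, adjusted p = 0.000101) and St18 (-1.02, adjusted p = 0.000967). Without C57BL/6 replicate 7, 6 of the 18 were called lower, against 9.35% of all genes. Within C57BL/6, Runx1t1 (8.55 CPM) and St18 (3.30 CPM) were highest in that library, which was also highest in enteric neuron genes, while Myt1 was lowest there (1.59 CPM). The enteric neuron list fell in the same comparison (11 of 12 lower, median -1.99), and its part was not tested. The most abundant of the list, Foxa1, Sox4 and Foxa2, are also used by other epithelial cells. Foxa2 passed (-0.72, adjusted p = 0.0119), Foxa1 stayed under the fold limit (0.22, adjusted p = 0.0267), and Sox4 did not pass (-0.14, adjusted p = 0.436). Relative to Winnie, 7 of the 18 were lower in Winnie-Prolapse (2.72% of all genes), and 0 were when counts were scaled to epithelial genes (1.28% of all genes).

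Of 14 genes of granule building and prohormone processing, 8 were lower in Winnie and 12 in Winnie-Prolapse vs. C57BL/6, and 0 were higher. The list medians were -0.92 and -1.29 (log2). Without C57BL/6 replicate 7 the counts were 8 and 11. The Winnie count was 11 without TMM and 13 on the epithelial scale, where 10.1% and 17.4% of all genes were lower. In Winnie-Prolapse 7 were called, all lower, where 8.47% of all genes were called lower. The largest changes were in the granule protein gene Resp18 (-2.22, adjusted p = 2.77e-06), Rab3c (-2.21, adjusted p = 0.000118), the convertase inhibitor gene Pcsk1n (-1.82, adjusted p = 2.4e-05) and Scg3, a granin relative (-1.75, adjusted p = 4.19e-05). The most abundant members were Pam, which amidates peptides (-0.74, adjusted p = 0.000576), Cpe, a carboxypeptidase (-1.24, adjusted p = 0.00202), and Scg2, another granin (-1.33, adjusted p = 0.0011). Enteric neurons express many of these genes, and their own list fell as given above, with list medians of -1.23 and -1.99. The part of neurons in the fall of the granule list was not tested. Smooth muscle genes, another tissue of the gut wall, were also lower in 7 of 7 in both comparisons, and without C57BL/6 replicate 7 in 4 of 7 in Winnie and 7 of 7 in Winnie-Prolapse.

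Other hormones and amines gave a mixed picture. Of 10 genes 6 were tested, and Gast had 0 counts in every library. In Winnie-Prolapse vs. C57BL/6 Ddc, which makes serotonin and dopamine from their precursors, was called lower (-1.20, adjusted p = 0.000144). Ghrl, the ghrelin gene, was called higher (1.92, adjusted p = 0.000139) from low levels, 0.159 to 0.342 CPM (at most 10 counts) in C57BL/6 and 0.463 to 1.47 CPM in Winnie-Prolapse. It thus entered the test largely through the Winnie groups. Tac1, the substance P gene that enterochromaffin cells and neurons share, was higher at the wider limit (1.48, adjusted p = 0.00202). Tph1, the serotonin-making enzyme of enterochromaffin cells, did not pass (-0.56, adjusted p = 0.0727). In Winnie only Ghrl of the 6 passed (1.15, adjusted p = 0.00822).

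Sensors of nutrients, acids and stretch were 11 tested of 13. Of these, 2 were lower and 1 higher in both Winnie and Winnie-Prolapse vs. C57BL/6, in Winnie-Prolapse about the share of all genes that were lower. With C57BL/6 replicate 7 left out, 2 were higher in Winnie-Prolapse. In Winnie-Prolapse the irritant channel gene Trpa1 was called higher (1.80, adjusted p = 0.000518). The short-chain fatty acid receptor gene Ffar3 was called lower, but it had at most 16 counts in any Winnie-Prolapse library (0.0403 to 0.484 CPM) and entered the test through C57BL/6 (0.376 to 2.64 CPM, highest in replicate 7). Olfr78, Ffar4 and Piezo2, the most abundant of the list, had log2 fold changes of -0.12, -0.39 and -0.14 and did not pass.

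Receptors of these hormones and the peptidases that cleave them were 13 tested of 19. Lower levels were found for 3 in Winnie and for 10 in Winnie-Prolapse, with 0 higher and list medians of -0.74 and -1.05. Without C57BL/6 replicate 7, 12 were tested and 9 were lower in Winnie-Prolapse. In Winnie-Prolapse 5 were called lower, against 8.47% of all genes, and 6 without that library, against 9.35%. The 5 included the somatostatin receptor genes Sstr2 (-2.75, adjusted p = 1.24e-05) and Sstr1 (-2.73, adjusted p = 2.98e-05), and the pancreatic polypeptide receptor gene Npy4r (-2.40, adjusted p = 8.85e-05). The neurotensin receptor gene Ntsr1 was also among them, but it had at most 4 counts in any Winnie-Prolapse library (0 to 0.118 CPM) and entered the test through C57BL/6 (0.254 to 1.81 CPM, highest in replicate 7). Of the most abundant, Npy1r passed the wider limit (-0.68, adjusted p = 0.0312), Sort1 did not reach the fold limit (-0.46, adjusted p = 0.0282) and Dpp4, which inactivates glucagon-like peptides, did not pass (-0.20, adjusted p = 0.269). Several of these receptors are found on neurons and muscle, whose lists fell in the same comparison.

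**Figure D5:**
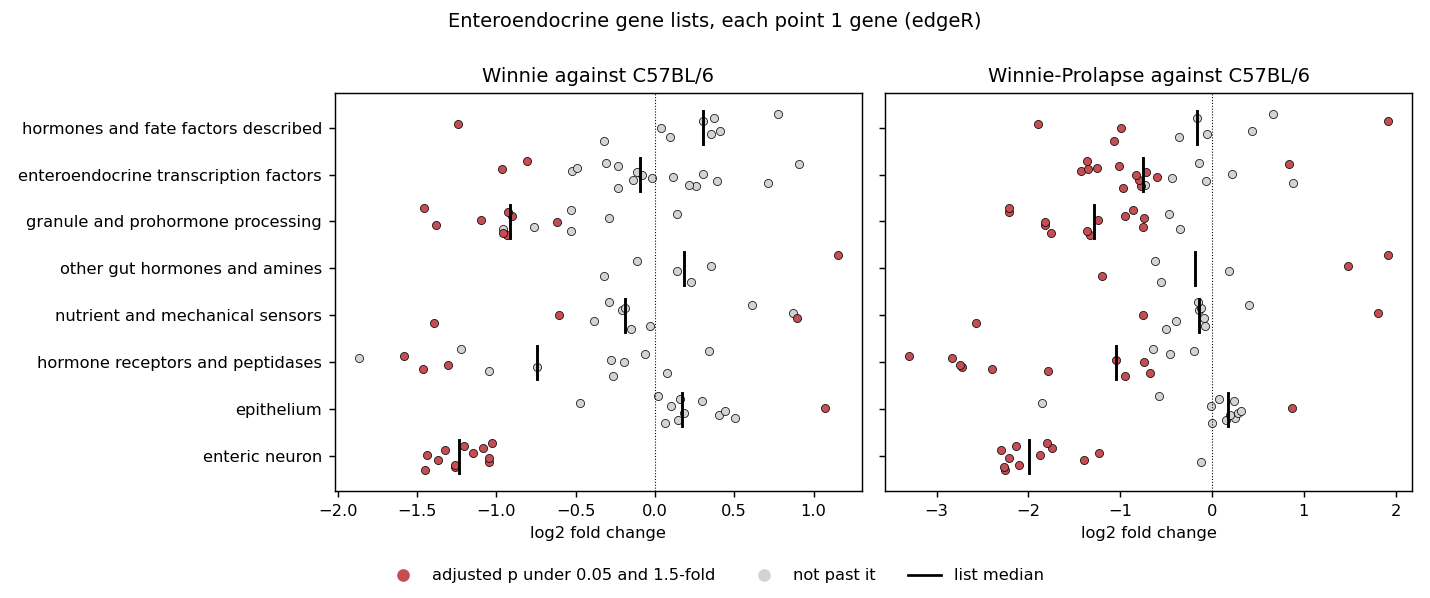
Log2 fold change (horizontal axis) of each gene of 8 lists (rows) in Winnie and in Winnie-Prolapse vs. C57BL/6, from edgeR. Each point is 1 gene, red where it passed adjusted p under 0.05 and 1.5-fold, and the black bar is the list median. The enteric neuron list has its median at -1.23 and -1.99, and the epithelium list at 0.17 in both.

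Male and female mice were compared across the 22 libraries, adjusting for group. None of the 10 genes differed at an adjusted p under 0.05 (smallest 0.964), where 0.0768% of 18236 genes did. The smallest unadjusted p was 0.159, for Chgb. Limma-voom also called 0. For the sex by group interaction, 0 of 9 genes passed in Winnie vs. C57BL/6, where 0.247% of genes did. Of the 9, 5 had an unadjusted p under 0.05 there (Chga, Chgb, Insl5, Cck and Neurod1), as did 18.2% of all genes, and the smallest adjusted p was 0.11. That fit held C57BL/6 replicate 7, a female, and was not repeated without it. In the other 2 contrasts 0 of 10 passed and 0% of all genes did, with 1 of the 10 (Nts) and 2 of the 10 (Chga and Insl5) at an unadjusted p under 0.05, beside 4.4% and 12.7% of all genes. Limma-voom called 0 in each contrast. Chga had an unadjusted p of 0.000677 in Winnie-Prolapse vs. Winnie (adjusted p = 0.3). Its levels in males were 29.4 to 40.8 CPM in Winnie and 24.2 to 36.5 CPM in Winnie-Prolapse, and in females 43.5 to 52.9 CPM and 16.3 to 22 CPM. Insl5 in Winnie was 15.1 to 27.9 CPM in the 3 males and 37.7 to 100.7 CPM in the 4 females. In C57BL/6 the ranges were 27.1 to 71.8 CPM and 18.7 to 71.6 CPM. The interaction for Insl5 in Winnie vs. C57BL/6 was -1.86 (log2, male effect minus female effect, SE 0.62, unadjusted p = 0.00949, adjusted p = 0.153).

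Within groups, some of the genes varied together from mouse to mouse. Levels on the log2(CPM + 0.1) scale were taken as differences from their group mean, and the 36 pairs of 9 genes were tested over 22 libraries with 100000 two-sided permutations within groups. Of these, 4 pairs passed an adjusted p under 0.05 in both Pearson's r and Spearman's rho. Pyy and Insl5, both of L cells, had r = 0.68 (permutation p = 0.0001, adjusted p = 0.0036) and rho = 0.80 (permutation p = 1e-05, the smallest the permutations can give, adjusted p = 0.00036). Chga and Chgb had r = 0.70 (permutation p = 0.00042, adjusted p = 0.00756) and rho = 0.65 (permutation p = 0.00231, adjusted p = 0.0277). Chga and Pyy had r = 0.62 (permutation p = 0.0025, adjusted p = 0.0225) and rho = 0.75 (permutation p = 0.00042, adjusted p = 0.00756). Insl5 and Cck went in opposite directions, with r = -0.63 (permutation p = 0.00206, adjusted p = 0.0225) and rho = -0.58 (permutation p = 0.00708, adjusted p = 0.0452). Leaving out the 2 libraries farthest from the median of the first gene gave r = 0.64, 0.75, 0.60 and -0.56 in the order named. Without C57BL/6 replicate 7, r was 0.63, 0.69, 0.68 and -0.56. The pairs that passed changed with the scale. After the epithelial list was subtracted 2 passed, Insl5 with Cck and Chgb with Neurod1 (r = 0.80, adjusted permutation p = 0.00288), and the first 3 pairs were lost in rho, with adjusted permutation p of 0.0869, 0.178 and 0.116. With TMM scaling 4 passed, but Insl5 with Cck gave way to Chga with Insl5 (r = 0.63, adjusted permutation p = 0.0268).

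The genes most like each of the 9 in these within-group differences were ranked by Pearson's r over the 22 libraries, as a description. Sst was closest to the neuropeptide genes Gal (r = 0.92) and Grp (r = 0.90), with Gm5607 (r = 0.91) between them. Chgb was closest to Chga (r = 0.70). Insl5 was closest to Alb (r = 0.88), Bex4 (r = 0.83) and Gm4956 (r = 0.82), and Pyy to Hgfac (r = 0.84), Gm9994 (r = 0.82) and Cldn14 (r = 0.80). For Cck the 3 were Spats2 (r = 0.91), Casc4 (r = 0.90) and Car8 (r = 0.89), and for Chga they were Fbxo36 (r = 0.81), Nxpe2 (r = 0.77) and RP23-297M4.7 (r = 0.76). Gcg was closest to 4933421A08Rik (r = 0.83), Neurod1 to Spag1 (r = 0.84) and Neurog3 to Jmjd6 (r = 0.78). All these points share libraries, and C57BL/6 replicate 7 is among them.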

How the data were processed

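Poly(A) RNA of distal colon was sequenced by the authors in paired ends from stranded libraries of 22 mice. Per the labels and the study's methods, reads were processed on the mouse genome GRCm38 with STAR and featureCounts, and the deposited table holds raw counts per gene for 46078 genes. The annotation release and strand setting are not given in the sources used here, so overlapping and antisense genes are uncertain. Groups and sex came from the labels. Replicate numbers follow the sample list and pair no animals. No sequencing or library batch is named.

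Counts were tested with edgeR 4.0.16 (quasi-likelihood F test, TMM, filterByExpr, Benjamini-Hochberg over all genes tested) in R 4.3.3, on the 2 groups of each comparison, with the calling limits of the study's methods. CPM used library totals, and RPKM the exon length of GENCODE M21, which held 45229 of the identifiers. Standard errors are the size of the log2 fold change divided by the square root of F. Promoters came from RefSeq (GRCm38.p6), matched by symbol for all 10 genes. On data simulated from the real means, the test recovered most of the changed genes put in. Recovery at the fold changes and spread seen in the 10 genes was not examined. The simulation therefore does not show that genes which did not pass were unchanged. Pairs of libraries of a group differed far beyond sampling noise (chi-square over df at least 28.8), so all were kept as separate. The replicates are separate mice by their labels. Limits from counts cover counting error only.

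Alternatives were no TMM, DESeq2 1.42.0, limma-voom (limma 3.58.1), other filters, sex as a covariate, 1 sex alone, all groups in one fit, other limits, scaling to epithelial genes, removal of milk protein genes and leaving out each library. Leaving out C57BL/6 replicate 7 while dropping the low-count filter was chosen after seeing the data, as was counting the lists without that library. The 10 genes and all lists were chosen with earlier results of these data known. By the rule fixed, genes named were the 10, and of each other list the 3 with the highest mean CPM and up to 4 called per comparison by size of change. Lists of other tissues are given mainly as sums and counts, so most of their genes under the rule are not named. To these come the genes most like each of the 10. Changes named at the wider limit only and the ratios are outside this rule and were chosen after their values were seen.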

Additional observations from a re-analysis of the deposited data

Results flagged for a closer look

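For each of the 10 genes and 3 groups, the highest and lowest library were compared with the rest of the group by Dixon's test. Of 30 such groups 9 had a library set apart, each on the high side. The test assumes normally distributed values, while CPM here are on a linear scale and some rest on few counts. The groups also share libraries, so no rate by chance is set beside this count. C57BL/6 replicate 7 accounted for 3 of them, with Sst at 29.56 CPM (next highest 13.01), Cck at 3.478 CPM (next 0.3644) and Nts at 4.782 CPM (next 0.1367). Winnie replicate 2 was set apart for Cck at 2.339 CPM (next 0.8097) and for Nts at 1.025 CPM (next 0.1312). Winnie replicate 5 was set apart for Sst at 8.695 CPM (next 4.593). Among Winnie-Prolapse libraries, replicate 4 was set apart for Chgb at 82.7 CPM (next 60.33) and Nts at 2.446 CPM (next 0.8406), and replicate 3 for Pyy at 223.1 CPM (next 141.7).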

How the results depend on the processing

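Of 27 log2 fold changes, 17 kept their direction under every alternative run. Calls of the 10 genes changed as follows. With an adjusted p under 0.05 in place of 0.001, 1, 4 and 2 genes were called in Winnie vs. C57BL/6, Winnie-Prolapse vs. C57BL/6 and Winnie-Prolapse vs. Winnie, in place of 0, 1 and 0. In Winnie-Prolapse vs. C57BL/6, DESeq2 called 3 (Chga, Nts and Sst) and 20.7% of all genes, scaling to epithelial genes 2 (Chga and Sst) and 14.4% of all genes, and males alone and females alone 0 each. Fewer samples entered the fits of 1 sex, in which Chga was -0.98 (adjusted p = 0.00735) and -1.26 (adjusted p = 0.0028). Leaving out 1 library gave 1 to 2 calls there, 2 without C57BL/6 replicate 7 (Cck and Chga, beside 20.1% of all genes), and 2 also with the low-count filter removed. Of the correlated pairs, 2 in place of 4 passed after the epithelial list was subtracted, 1 of them (Insl5 and Cck) among the 4. The cause of the other changes was not tested.

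The other 10 changed sign under some alternative, and in none of those fits was the gene called. Chgb in Winnie was -1.77e-05 without TMM, -0.32 in males and -0.24 on the epithelial scale. Insl5 in Winnie was -0.076 without TMM, -0.16 with limma-voom, -0.0088 with at least 10 counts in every library, -0.23 with sex as a covariate, -1.27 in males (adjusted p = 0.02), -0.40 on the epithelial scale and -0.066 without filter and replicate 7. Leaving out 1 library gave -0.26 to 0.21. In females of that comparison Chga was 0.035 and Cck -1.20, in males -0.81 (adjusted p = 0.0136) and 2.34 (adjusted p = 0.0117), and leaving out 1 library gave Cck -0.26 (without Winnie replicate 2) to 1.63. In Winnie-Prolapse vs. C57BL/6, Gcg was 0.0063 with limma-voom, 0.11 in males, 0.20 without filter and replicate 7 and -0.22 to 0.20 with 1 library left out, and Neurod1 was 0.097 in females. In Winnie-Prolapse vs. Winnie, Pyy was -0.030 with limma-voom, -0.31 in females and -0.19 to 0.13 with 1 library left out. There Insl5 was 0.31 and Sst 0.069 in males, and Neurog3 was 0.19 on the epithelial scale and -0.24 to 0.058 with 1 library left out.

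Scaling to epithelial genes moved the median log2 fold change of all genes to -0.32, -0.073 and 0.25 in the 3 comparisons. On that scale 17.4% of all genes were lower and 3.22% higher at the wider limit in Winnie, in place of 8.53% and 7.42%, and 2 of the 10 genes passed the wider limit in Winnie in place of 1, with Chga added (-0.66, adjusted p = 0.0132). There 4 transcription factors, 5 receptors and 3 sensors were lower in Winnie, in place of 2, 3 and 2, and 0 sensors and 0 other hormones were higher, in place of 1 each, so that Ghrl no longer passed there. In Winnie-Prolapse 2 other hormones and amines were lower in place of 1, and 0 transcription factors higher in place of 1. Both also held without TMM. In Winnie-Prolapse vs. C57BL/6, 46.3% of calls over all genes were lower, and 55.9% on that scale. No paired analysis was possible because replicate numbers follow the sample list. Depth limits Nts, Cck and Neurog3, whose libraries reach 10 counts or fewer.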
